A study of Mus musculus with 22 samples.

Results

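The 10 genes that mark heat-producing fat were followed in mammary tissue: Ucp1, Cidea, Ppargc1a, Dio2, Elovl3, Cox7a1, Cox8b, Prdm16, Fabp3 and Otop1. They were matched by gene symbol, and all 10 were found among the 52526 distinct symbols listed. The tissue was the left 4th mammary fat pad of 22 female C57BL/6J mice, 7 to 8 weeks old, each engrafted with 100000 cells of EO771, a mammary cancer line of the same strain that had been made to express luciferase. The first factor of the design was activity, with a running wheel in the home cage or, in the sedentary controls, only the hub on which a wheel turns, for 2 weeks before engraftment. The other factor was an intravenous injection of liposomes, filled with PBS or with clodronate, which depletes macrophages once they have engulfed it. The injections were given a day before and again at engraftment, and tissue was taken 24 hours after engraftment. This gave 6 control + PBS, 6 wheel + PBS, 5 control + clodronate and 5 wheel + clodronate mice, each mouse with 1 library, and every group carried EO771 cells and received liposomes.

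Brown adipocytes burn fuel to make heat, and beige adipocytes are cells within white fat depots that can take on the same program. Noradrenaline from sympathetic nerves binds beta-adrenergic receptors, cyclic AMP and protein kinase A then drive lipolysis and transcription, and UCP1 in the inner mitochondrial membrane lets protons return to the matrix without making ATP. In mice, the mammary fat pad is a subcutaneous white depot known to form beige adipocytes in the cold. PRDM16 and PGC-1alpha (Ppargc1a) are regulators of the program, the deiodinase DIO2 activates thyroid hormone inside the cell, and CIDEA coats lipid droplets. COX7A1 and COX8B are subunits of cytochrome c oxidase found in heart, skeletal muscle and brown fat, FABP3 carries fatty acids in the same tissues, ELOVL3 lengthens very long chain fatty acids in brown fat and in skin glands, and OTOP1 is a proton channel.

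The promoters of 3 members are shown because cyclic AMP is the route by which noradrenaline reaches these genes. The 250 bases before each RefSeq start site (GRCm38.p6) are given 5′ to 3′ on the gene's strand, with capitals for TGACG, the core of a cyclic AMP response element, on either strand, or for the whole element TGACGTCA. Ucp1 lies on the plus strand with its window at chr8:83290098-83290347. Ppargc1a lies on the minus strand with its window at chr5:51567726-51567975. Dio2 lies on the minus strand with its window at chr12:90739039-90739288, upstream of where GENCODE starts the gene.
Ucp1: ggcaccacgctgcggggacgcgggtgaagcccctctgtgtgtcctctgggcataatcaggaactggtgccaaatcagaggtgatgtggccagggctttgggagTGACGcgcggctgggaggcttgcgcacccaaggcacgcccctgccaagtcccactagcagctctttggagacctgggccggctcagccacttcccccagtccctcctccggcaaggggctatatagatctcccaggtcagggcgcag
Ppargc1a: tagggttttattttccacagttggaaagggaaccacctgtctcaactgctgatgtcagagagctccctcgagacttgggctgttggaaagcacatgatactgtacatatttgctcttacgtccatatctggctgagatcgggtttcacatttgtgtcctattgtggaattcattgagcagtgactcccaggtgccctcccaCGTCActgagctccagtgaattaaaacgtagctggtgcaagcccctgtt
Dio2: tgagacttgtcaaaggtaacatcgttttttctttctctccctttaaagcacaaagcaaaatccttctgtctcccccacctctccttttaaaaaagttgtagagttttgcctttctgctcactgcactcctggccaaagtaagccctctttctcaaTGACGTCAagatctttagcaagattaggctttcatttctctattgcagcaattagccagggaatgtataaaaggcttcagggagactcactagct

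8 of the 10 members had a RefSeq promoter window. The Dio2 window held the whole element 95 bases before the start, which overlaps its core matches, and 1.55% of 32851 windows of the same length held it. TGACG was also found in Ucp1, 147 bases before the start, in Ppargc1a on the opposite strand, 49 bases before it, and in Fabp3, against 17.8% of all windows. None of the motifs searched on both strands was found in the windows of Cox7a1, Cox8b, Prdm16 and Otop1; the others were AAGGTCA (4.08% of windows) and CACGTG (6.02%). A match of letters is a description of the sequence and not a measured site.

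Libraries held 13256467 to 20484578 reads, with a median of 16293026, and were made by counting the 3′ ends of transcripts, so that levels of different genes can be compared as reads scaled to one common library total (CPM) without a correction for length. Deposited values below 1 CPM had been raised to 1, here called the floor, which hides up to 13 to 20 reads of a gene. Marker lists showed that the libraries differed in more than fat. The mean of log2(CPM + 1) over 14 skeletal muscle markers ran from 1.51 to 10.5, that of 10 epithelium markers from 4.83 to 6.82, and that of 12 lymphocyte markers lay at or below 1.42 in 17 mice and above 4 in the other 5, of which 3 were wheel + clodronate mice. White adipocyte markers were abundant in every mouse, with Adipoq, the adiponectin gene, at 865 to 2656 CPM. As a check on the liposomes, all 11 macrophage markers had lower group means with clodronate in control mice and 8 of 11 in wheel-running mice, and none passed the test. Of all 15138 genes tested, 9905 and 7558 had lower means in these comparisons. The macrophage score had a median of 4.94 (mean 4.58) in wheel + clodronate mice and 4.81 (mean 4.73) in wheel + PBS mice. Depletion was therefore shown in neither activity group: in controls all 11 means were lower, but the lowest limma adjusted p was 0.67. In whole tissue, fewer cells of a type and less RNA per cell cannot be told apart.

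Ucp1 was close to undetected. It stood above the floor in 4 of 22 mice, at 3.58 CPM (49 reads) and 8.16 CPM (134 reads) in control + PBS mice 1 and 2, at 4.88 CPM (65 reads) in wheel + PBS mouse 3 and at 7.27 CPM (149 reads) in control + clodronate mouse 1. The other 18 mice, all 5 wheel + clodronate mice among them, were listed at the floor. Ucp1 (chromosome 8, 83290352 to 83298452, GRCm38) therefore missed the filter of 5 mice above the floor and was compared by itself. On the log2(CPM + 1) scale the wheel-minus-control difference was -0.31 with PBS (exact two-sided permutation p = 0.727 over 924 splits). With clodronate it was -0.41, and control + clodronate mouse 1 alone was above the floor. Each of the 252 splits then gives a difference of the same size, so permutation could not test the clodronate difference. Both kinds of wheel-running mice had 1 fewer mouse above the floor than their controls, and the groups overlapped. Its relatives were more abundant: Ucp2, which is broadly expressed, immune cells included, had a median of 50.1 CPM, and Ucp3, the skeletal muscle form, a median of 7.37 CPM.

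The genes whose pattern over the 22 mice was most like that of Ucp1, after subtracting group means, were Adh6-ps1 (Pearson r = 0.81), Pdha1 (0.80), Dlat (0.76), Agpat2 (0.74) and Chchd10 (0.73). PDHA1 and DLAT are subunits of the pyruvate dehydrogenase complex, which feeds glucose carbon into mitochondria, AGPAT2 acts in triglyceride synthesis, and CHCHD10 is a mitochondrial protein. Pdha1 was at 330 and 281 CPM in control + PBS mice 1 and 2, 263 CPM in wheel + PBS mouse 3 and 286 CPM in control + clodronate mouse 1, against a median of 171 CPM over all mice. Chchd10 in the same 4 mice was at 235, 264, 185 and 239 CPM, against a median of 131 CPM. Wheel + PBS mice 4 and 5, with Ucp1 at the floor, had Chchd10 at 196 and 197 CPM, above wheel + PBS mouse 3. These likenesses are descriptions: they are the highest of all genes tested, and for Ucp1 they rest on 4 mice.

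**Figure D1:**
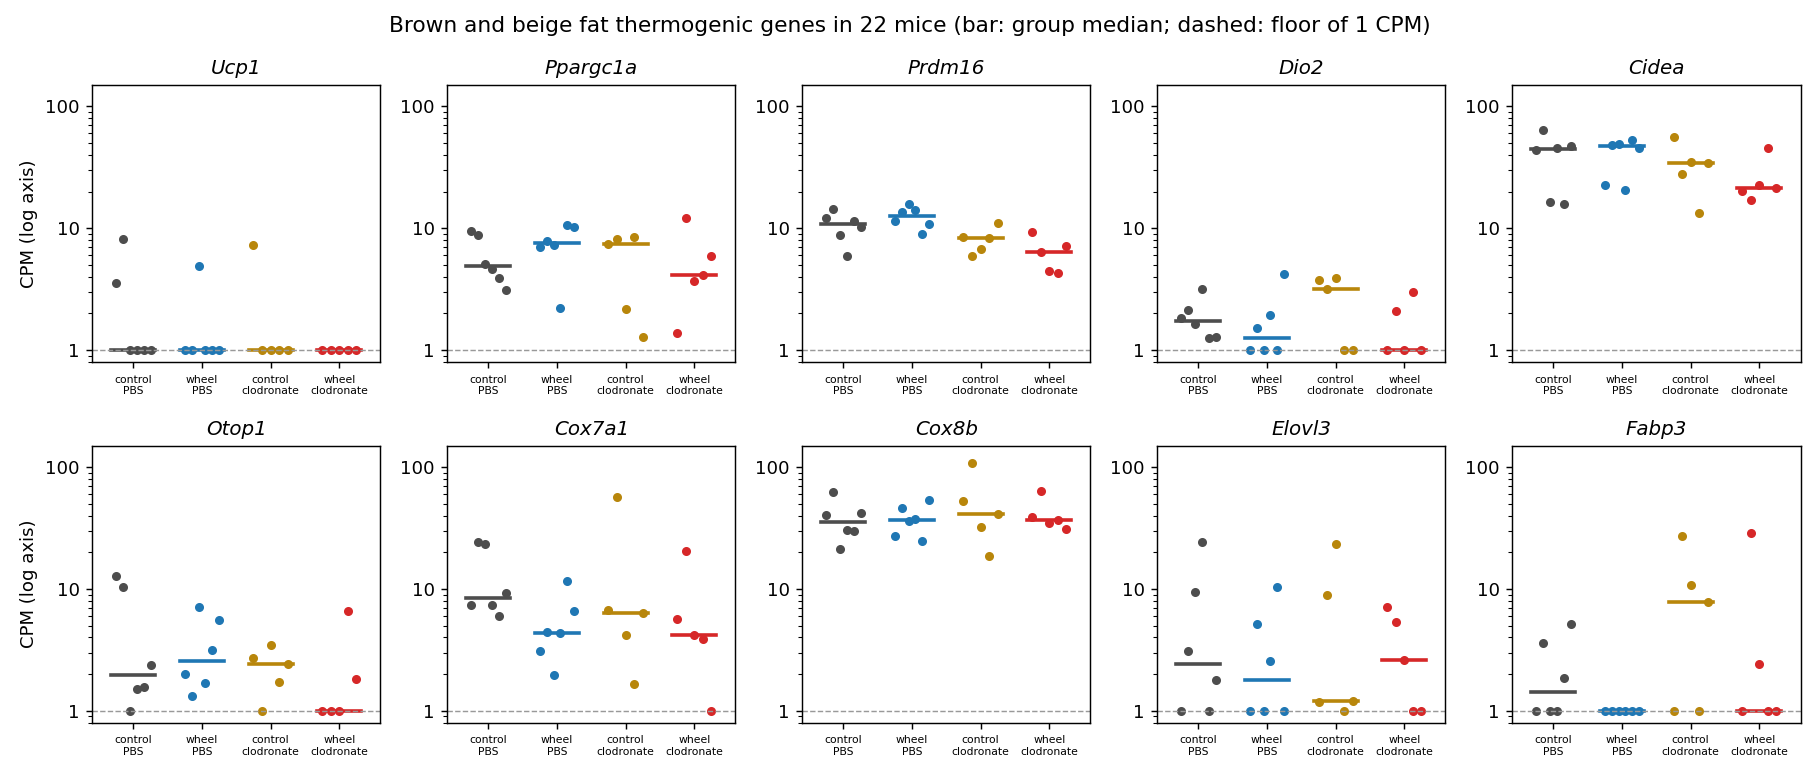
CPM of the 10 genes in each mouse, on a log axis, by group; bars are group medians and the dashed line is the floor of 1 CPM. Cox8b and Cidea stand highest, with medians of 37.0 and 34.7 CPM, while Ucp1 leaves the floor in 4 of 22 mice and Fabp3 in 8.

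The levels of the 10 genes spanned from the floor to over 100 CPM. Cox8b led with a median of 37.0 CPM (18.7 to 108), followed by Cidea with 34.7 CPM (13.4 to 63.6), and Cox8b exceeded Cidea in 12 of 22 mice, so that the order of these 2 does not stand out from their spread. Cidea exceeded Prdm16, with a median of 9.09 CPM, in 22 of 22 mice. Ppargc1a (6.46 CPM) and Cox7a1 (6.16 CPM) did not separate, with Ppargc1a above Cox7a1 in 9 of 22 mice. Elovl3, Otop1 and Dio2 had medians of 2.18, 1.91 and 1.57 CPM and crossed each other freely, and Fabp3 and Ucp1 had medians at the floor.

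Prdm16, the zinc finger regulator that keeps brown and beige adipocytes from turning into other cells, gave the clearest separation of groups among the members, although it did not pass the test over all genes. Its levels were 12.2, 14.3, 8.78, 5.91, 11.5 and 10.3 CPM in control + PBS mice and 11.4, 13.6, 15.9, 14.2, 8.94 and 10.8 CPM in wheel + PBS mice. With clodronate they were 8.40, 5.91, 6.70, 8.34 and 11.1 CPM in control mice and 9.23, 6.33, 4.44, 4.31 and 7.14 CPM in wheel-running mice. Only the highest wheel + clodronate mouse reached the lowest wheel + PBS mouse, while the other groups overlapped widely. Averaged over activity, clodronate minus PBS was -0.62 on the log2(CPM + 1) scale (SE 0.18, limma, unadjusted p = 0.00204, adjusted p = 0.153), a fold of 0.653.

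The Prdm16 difference was -0.91 (SE 0.25) within wheel-running mice, with a limma unadjusted p of 0.00139 and an adjusted p of 0.189, and -0.32 (SE 0.25, limma adjusted p = 0.832) within controls. The change of the difference with activity was -0.59 (SE 0.35) and did not pass either (limma adjusted p = 0.72). White adipocyte markers moved the same way: 12 of 12 had lower means with clodronate averaged over activity, with a median of -0.39, and none passed the test. Lymphocyte markers were high in 3 of the 5 wheel + clodronate mice. Without the 5 lymphocyte-high mice the Prdm16 difference averaged over activity was -0.39 (SE 0.21, limma adjusted p = 0.448). Within wheel-running mice the Prdm16 difference was then -0.55 (SE 0.33, limma adjusted p = 0.666), with only 2 wheel + clodronate mice left. Over 22 mice, with group means subtracted, Prdm16 correlated with the white adipocyte score at r = 0.34 (permutation within groups, adjusted p = 0.387). Without the 2 mice farthest from the median score r was 0.48 (permutation within groups, adjusted p = 0.316). The part of fat and lymphocyte content in the Prdm16 difference between groups was not tested. Prdm16 (chromosome 4, 154316125 to 154636873) shares exon sequence on the opposite strand with B230104I21Rik, and whether the counting used strand is not given in the sources used here. The nearest patterns to Prdm16 were those of Rhbdd3 (r = 0.77), Nup54 (0.77) and Apmap (0.75), the last of them an adipocyte membrane protein.

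Ppargc1a, the coactivator that drives mitochondrial biogenesis and is itself induced by cyclic AMP, did not separate the groups. Its levels were 9.56, 8.83, 5.11, 4.62, 3.92 and 3.12 CPM in control + PBS mice and 6.96, 7.90, 7.29, 2.20, 10.7 and 10.3 CPM in wheel + PBS mice. Control + clodronate mice had 7.42, 8.23, 2.16, 8.40 and 1.28 CPM, and wheel + clodronate mice 1.38, 12.2, 3.71, 4.13 and 5.97 CPM. All groups overlapped, and both clodronate groups ran from below 2 to above 8 CPM. The wheel-minus-control difference was 0.30 with PBS (SE 0.43, limma adjusted p = 0.991) and lay near 0 with clodronate (95% interval -0.98 to 0.98). Its relative Ppargc1b was higher in level, and Ppargc1a made up 25.1% ± 11.9 (SD, n = 22) of the 2 together. Tesk1 (r = 0.77), Fam173a (0.75) and Ric8b (0.73) were the genes closest to it in pattern.

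Dio2, which turns the thyroid hormone precursor into its active form and is one of the quickest genes to follow adrenergic input in brown fat, never exceeded 4.20 CPM. Control + PBS mice lay between 1.27 and 3.16 CPM, all 6 above the floor, whereas 3 of 6 wheel + PBS mice, 2 of 5 control + clodronate mice and 3 of 5 wheel + clodronate mice were at the floor. The wheel-minus-control difference was -0.12 with PBS (95% interval -0.70 to 0.46). Its relatives Dio1 and Dio3 were at the floor in every mouse. With 22 to 77 reads in the mice above the floor, its level is limited by depth. Among the closest patterns were those of Tti1 (r = 0.71) and Gm11969 (0.66).

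Cidea, a lipid droplet protein that is high in brown fat and low in resting white fat, was above the floor in all mice. It was at 43.9, 63.6, 16.4, 45.6, 16.0 and 47.4 CPM in control + PBS mice and at 22.5, 48.5, 49.3, 20.7, 52.7 and 45.8 CPM in wheel + PBS mice. With clodronate it was at 56.3, 28.1, 35.0, 13.4 and 34.3 CPM in control mice and at 20.0, 17.1, 22.8, 45.3 and 21.3 CPM in wheel-running mice. Each PBS group held 2 mice at or below 22.5 CPM and 4 at or above 43.9 CPM, and 4 of 5 wheel + clodronate mice were at or below 22.8 CPM. The differences were 0.12 for wheel minus control with PBS (SE 0.36, limma adjusted p = 0.997) and -0.63 for clodronate minus PBS in wheel-running mice (SE 0.38, limma adjusted p = 0.552). Cidec, the form typical of white fat, had a median of 679 CPM, and Cidea made up 4.95% ± 2.59 (SD, n = 22) of both. Among the 9 tested members, Otop1 had the highest correlation with Cidea (r = 0.63 over 22 mice), and Ucp1 was not among the pairs. It was at 12.7 and 10.4 CPM in control + PBS mice 1 and 2, at 7.06 CPM in wheel + PBS mouse 3 and at 6.56 CPM in wheel + clodronate mouse 4, and at or below 5.56 CPM in the other 18 mice.

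**Figure D2:**
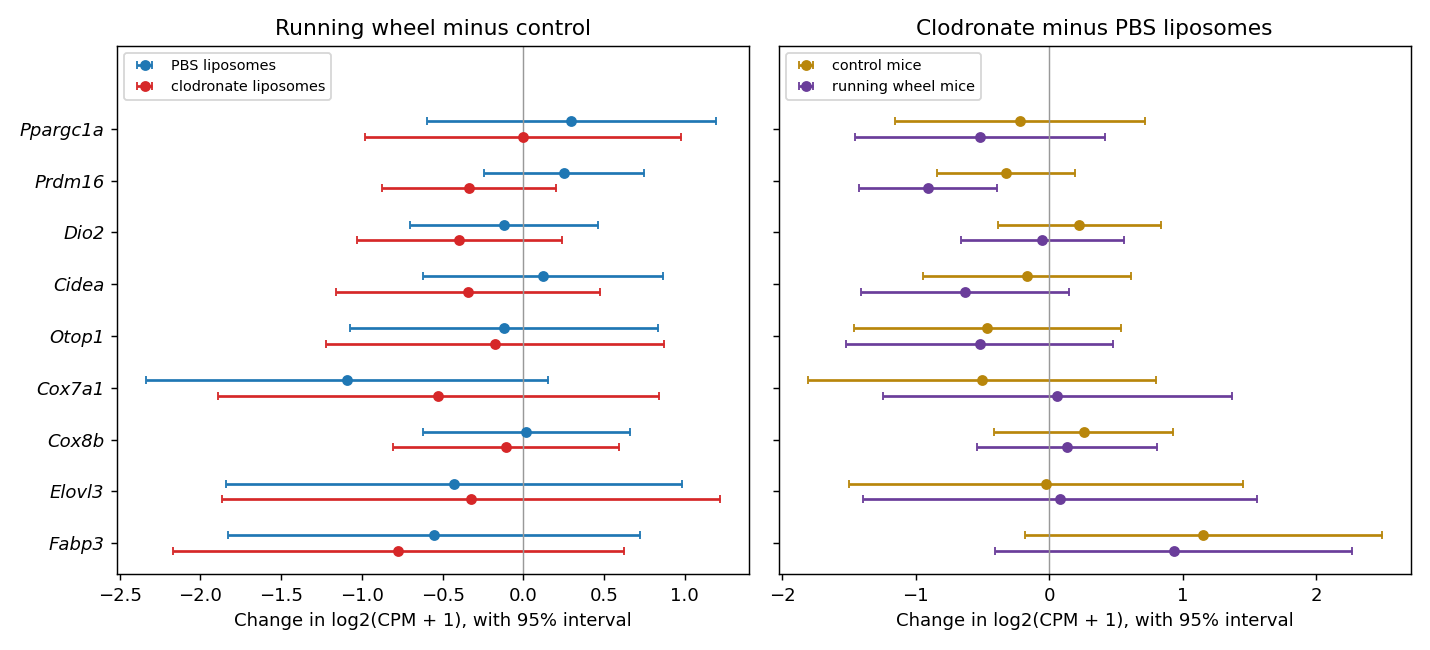
Change in log2(CPM + 1) of the 9 tested genes with its 95% interval, for wheel minus control (left, by liposome) and clodronate minus PBS (right, by activity). The interval of Prdm16 for clodronate in wheel-running mice, -1.43 to -0.39, is the one interval that leaves out 0, and its adjusted p was 0.189 in limma.

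Over the 9 members that could be tested with limma, 0 passed an adjusted p of 0.05 in any of 7 comparisons. For running with PBS liposomes, 0% of the 15138 genes tested passed either, and 744 (4.91%) had an unadjusted p below 0.05, none of them a member. For running with clodronate liposomes, 1 gene (0.00661%) passed and 1579 (10.4%) had an unadjusted p below 0.05, again with no member. Without wheel + clodronate mouse 1 the count passing was 174 genes, and without mouse 2 it was 240. These mice had lymphocyte scores of 1.00 and 1.31, against 5.56, 5.66 and 4.99 in wheel + clodronate mice 3, 4 and 5. The part of lymphocyte content in these counts was not tested. The 9 members had a median change of -0.12 for running with PBS, 4 higher and 5 lower, beside -0.08 for all genes, of which 36.2% were higher, and of -0.34 with clodronate, with 9 of 9 lower, beside 0.0045 for all genes, of which 50.6% were higher. In that last comparison white adipocyte markers had 10 of 12 lower means (median -0.31), muscle markers 13 of 14 lower (median -1.08) and lymphocyte markers 12 of 12 higher (median 2.32, all 12 at an unadjusted p below 0.05), none past the limma test, and their part in the members' values was not tested. For the difference between these 2 running effects, and for their average, 0% of genes passed, with 1147 (7.58%) and 1224 (8.09%) at an unadjusted p below 0.05. For clodronate averaged over activity, 31 genes (0.205%) passed, all of them lower, and none was a member; the count was 12 without control + clodronate mouse 2 and 146 without control + clodronate mouse 1. Within controls 0% passed (6.99% at an unadjusted p below 0.05, with no member) and within wheel-running mice 1 gene (0.00661%) did (11.6%, with Prdm16 the 1 member). At an unadjusted p below 0.05 the members called for clodronate averaged over activity were Prdm16 and Fabp3, against 10.4% of all genes.

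Cox7a1 and Cox8b, the forms of their subunits found in muscle and brown fat, differed in level and in spread. Cox8b was at 40.7, 62.3, 21.3, 30.2, 30.0 and 42.3 CPM in control + PBS mice and at 27.1, 46.0, 36.0, 37.3, 25.0 and 53.8 CPM in wheel + PBS mice. With clodronate it was at 53.2, 108, 32.4, 18.7 and 41.3 CPM in control mice and at 39.1, 64.2, 34.8, 36.6 and 31.2 CPM in wheel-running mice. All 4 groups overlapped, with wheel minus control at 0.02 with PBS (95% interval -0.62 to 0.66). Control + clodronate mouse 2, the highest, was also the highest in muscle markers.

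Cox7a1 was at 7.44, 24.5, 23.2, 7.37, 5.99 and 9.30 CPM in control + PBS mice and at 3.09, 4.40, 1.95, 4.33, 11.7 and 6.58 CPM in wheel + PBS mice. With clodronate it was at 6.74, 56.4, 4.19, 1.67 and 6.34 CPM in control mice and at 5.65, 20.7, 4.19, 3.89 and 1 CPM in wheel-running mice. Of the wheel + PBS mice, 4 of 6 lay below all control + PBS mice, and the other 2 overlapped them. The difference of -1.09 (SE 0.60, limma unadjusted p = 0.083, adjusted p = 0.987) was the furthest from 0 among the members for running with PBS. Without the 4 mice with a muscle score over 7 it was -0.89 (SE 0.44, limma adjusted p = 0.976). Of these mice only control + PBS mouse 3 was in the groups compared. Control + PBS mouse 2, at 24.5 CPM, stayed in with a muscle score of 3.72. All 14 skeletal muscle markers had lower means in wheel + PBS than in control + PBS mice, with a median of -1.88 and none past the test, and their part in the Cox7a1 difference was not tested.

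Set against their broadly expressed paralogs, both muscle and brown fat forms were the minor ones. Cox7a1 made up 4.12% ± 4.85 (SD, n = 22) of Cox7a1 and Cox7a2 together and Cox8b 11.9% ± 6.81 (SD, n = 22) of Cox8b and Cox8a. The share of Cox7a1 ran from 0.52% to 22.7% and that of Cox8b from 4.50% to 37.7%, and control + clodronate mouse 2 held both maxima. Among the nearest patterns to Cox8b were those of Aldoa (r = 0.80), a glycolytic enzyme abundant in muscle, and mt-Tl1 (0.76), a mitochondrial tRNA.

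**Figure D3:**
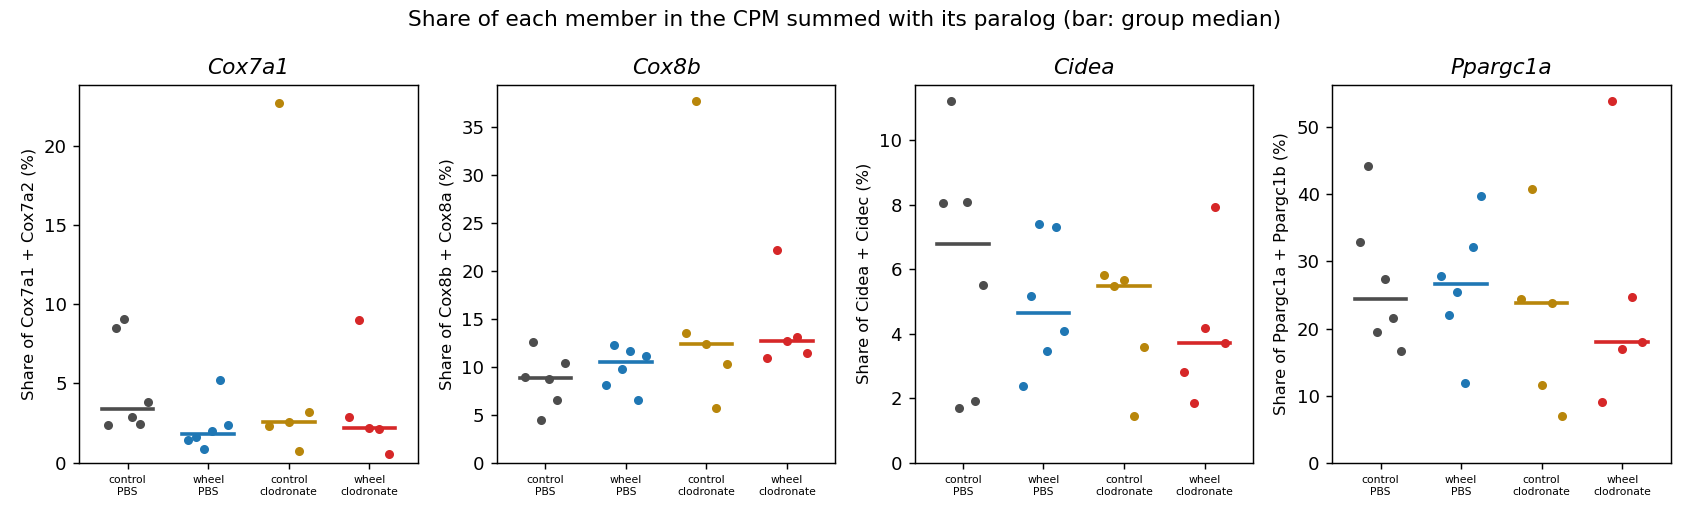
Share of Cox7a1, Cox8b, Cidea and Ppargc1a in the CPM summed with the named paralog, in percent, one point per mouse with bars at group medians. Cox7a1 and Cox8b are minor forms, at means of 4.12% and 11.9% over 22 mice, with 1 control + clodronate mouse at 22.7% and 37.7%.

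Fabp3 varied with muscle markers. It was at the floor in 14 of 22 mice, including all 6 wheel + PBS mice, and at 1, 3.59, 1, 1, 1.84 and 5.13 CPM in control + PBS mice. With clodronate it was at 1, 27.4, 10.9, 1 and 7.85 CPM in control mice and at 1, 28.8, 2.43, 1 and 1 CPM in wheel-running mice. The 2 mice above 20 CPM were the 2 with the highest muscle scores, 10.5 and 9.56. Over 22 mice, with group means subtracted, Fabp3 correlated with the muscle score at r = 0.80 (permutation within groups, p = 0.0013, adjusted over 36 relations p = 0.0234; Spearman's rho 0.71, permutation p = 0.00273, adjusted p = 0.0491). Without those 2 mice r was 0.60 (permutation p = 0.0523), so the call rests on them.

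The nearest genes in pattern to Fabp3 were Trim63 (r = 0.93), a ubiquitin ligase of muscle, Ky (0.91), a muscle protein, and Coro6 (0.91). Trim63 was at 41.4 CPM in control + clodronate mouse 2 and at 25.8 CPM in wheel + clodronate mouse 2, with a median of 1 CPM over all mice. Clodronate minus PBS averaged over activity was 1.05 for Fabp3 (SE 0.46, limma unadjusted p = 0.0318, adjusted p = 0.414), and without the 4 mice with a muscle score over 7 it was 0.12 (SE 0.28, limma adjusted p = 0.951). Without wheel + clodronate mouse 2 alone it was 0.67. All 14 muscle markers had higher means with clodronate, with a median of 1.51 and none past the test. Fabp3 (chromosome 4, 130308595 to 130315463) is uncertain, since its last 400 bases match Fabp3-ps1 and its 3′ end overlaps Zcchc17 on the opposite strand.

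Cox7a1 correlated with the muscle score at r = 0.65 (permutation p = 0.00769, adjusted p = 0.0923; Spearman's rho 0.46, permutation p = 0.0529, adjusted p = 0.316) and, without the 2 mice farthest from the median score, at r = 0.30. For Cox8b r was 0.31 (permutation p = 0.276, adjusted p = 0.621; Spearman's rho 0.09, permutation p = 0.717, adjusted p = 0.954), and -0.22 without those mice. The 3 genes shared mice with high values: Cox7a1 correlated with Fabp3 at r = 0.66 and with Cox8b at r = 0.65. Cox8b correlated with Fabp3 at r = 0.61, and the median of 36 pairs of the 9 tested members, without Ucp1, was 0.17. These pairs are given as a description.

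**Figure D4:**
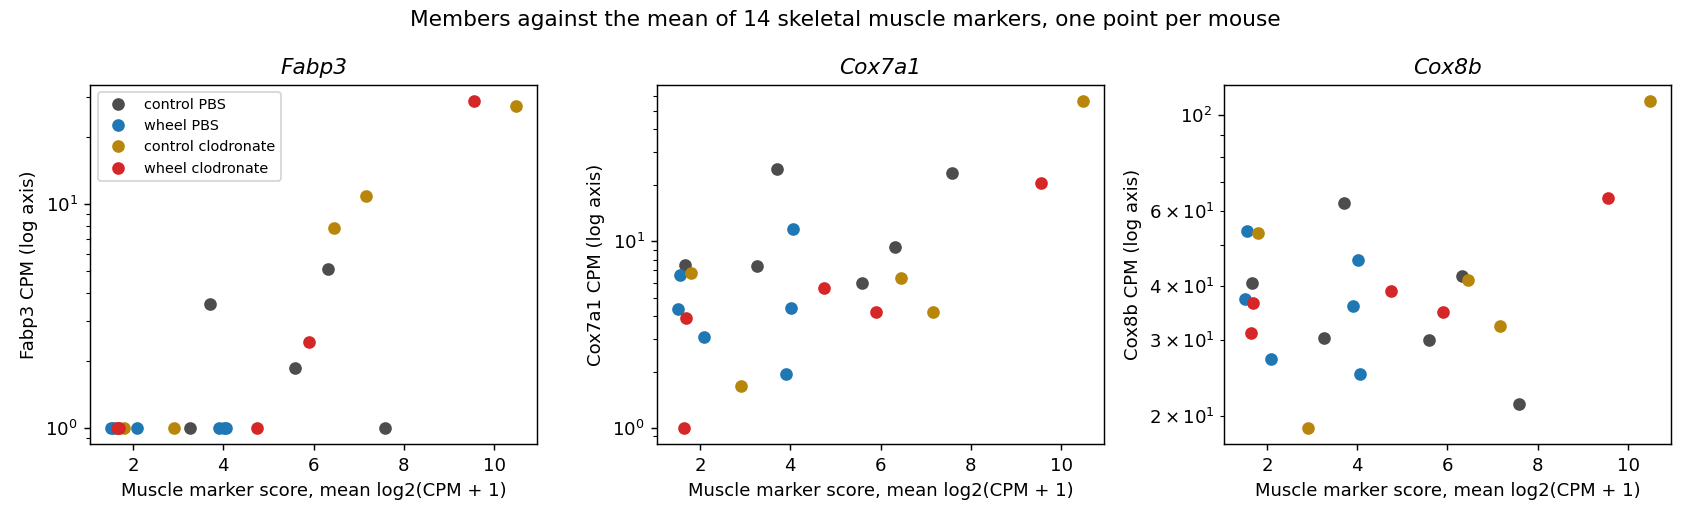
CPM of Fabp3, Cox7a1 and Cox8b (log axes) against the mean log2(CPM + 1) of 14 skeletal muscle markers, one point per mouse, coloured by group. The 2 clodronate mice with scores of 10.5 and 9.56 have Fabp3 at 27.4 and 28.8 CPM.

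Elovl3 varied with epithelium markers. It was at 1, 3.11, 9.37, 24.3, 1 and 1.78 CPM in control + PBS mice, at 1, 5.13, 1, 2.57, 10.5 and 1 CPM in wheel + PBS mice, at 1.17, 8.90, 23.2, 1 and 1.21 CPM in control + clodronate mice and at 7.09, 5.37, 2.61, 1 and 1 CPM in wheel + clodronate mice. Each group held mice at or near the floor beside mice above 5 CPM. The wheel-minus-control difference was -0.43 with PBS (SE 0.68, limma adjusted p = 0.991) and -0.32 with clodronate (SE 0.75, limma adjusted p = 0.928). A list of 15 epidermis and hair follicle genes, chosen after these values were seen, had 15 of 15 lower means in both comparisons (medians of -0.81 with PBS and -0.97 with clodronate) and none past the test, and its part in the Elovl3 values was not tested.

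Elovl3 correlated with the score of 10 epithelium markers at r = 0.74 (permutation within groups, p = 0.00011, adjusted p = 0.00396; Spearman's rho 0.66, permutation p = 0.00115, adjusted p = 0.0414; n = 22), and at r = 0.69 without the 2 mice farthest from the median score (permutation p = 0.00151, adjusted p = 0.0544). With all 22 mice, only this relation and that of Fabp3 with muscle passed an adjusted p of 0.05 among the 36. The epithelium list, with Krt5, Krt14 and Krt17 beside Krt8 and Krt18, was not split by kind of epithelium. The epidermis and hair follicle list was not among the 36 relations. Elovl3 correlated with the muscle score at r = 0.49 and with the white adipocyte score at r = -0.50 (permutation within groups, adjusted p = 0.212 for each). The genes nearest to Elovl3 in pattern, looked up after its values were seen, were Serpina3j (r = 0.96), Sprr1a (0.96), a cornified envelope protein of keratinocytes, and Calml3 (0.95). Sprr1a was at 207 CPM in control + PBS mouse 4 and 226 CPM in control + clodronate mouse 3, the 2 mice highest in Elovl3. The epidermis and hair follicle list ran from a mean log2(CPM + 1) of 2.32 to 8.96, and its highest value was also in control + clodronate mouse 3. Elovl3 (chromosome 19, 46131897 to 46135694) overlaps Pitx3 on the opposite strand at its 3′ end.

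**Figure D5:**
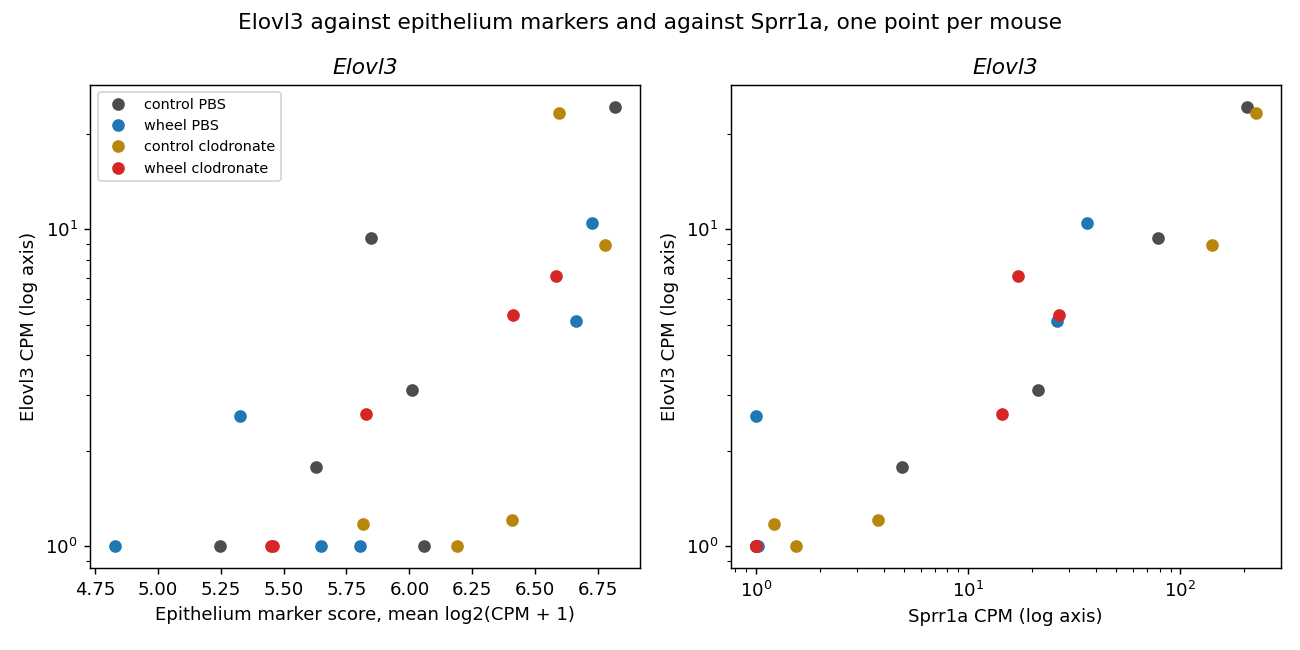
Elovl3 CPM (log axis) against the mean log2(CPM + 1) of 10 epithelium markers (left) and against Sprr1a CPM (right, log axis), one point per mouse, coloured by group. The 2 mice with the most Elovl3, at 24.3 and 23.2 CPM, have the most Sprr1a, at 207 and 226 CPM.

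The wider pathway gave no call either. Passing the filter on low values were 8 of 8 genes of adrenergic input, 16 of 16 transcription factors, 18 of 24 other brown and beige associated genes and 9 of 10 genes of heat cycles that do not use UCP1, and 0 of them passed the test in any of the 7 comparisons. Cpn2, Cpt1b, Fgf21 and Bmp8b were at the floor in every mouse. The receptor of brown and white adipocytes, Adrb3, was at 75.6 to 215 CPM, so the receptor was well above the floor where Ucp1 was not.

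For running with PBS liposomes, 36.2% of all genes tested had higher means, and 48.7% with upper-quartile scaling. Among adrenergic genes 5 of 8 had higher means, with Adrb1 at 0.49 (SE 0.39) and Rgs2, which limits G protein signalling, at 0.24 (SE 0.34). The phosphodiesterase Pde3b was at -0.11 (SE 0.20). Among transcription factors 9 of 16 had higher means. Irf4, which acts with PGC-1alpha in brown fat and is also high in lymphocytes, was at 1.60 (SE 0.41, limma unadjusted p = 0.000764, adjusted p = 0.961). It was at 4.88 to 25.8 CPM in wheel + PBS mice and at 1 to 10.0 CPM in control + PBS mice, so the groups overlapped. Ppara was at 0.60 (SE 0.29), the mitochondrial factor Tfam at -0.47 (SE 0.26) and Pparg, the master regulator of adipocytes, at -0.18 (SE 0.32). Among the other brown and beige genes 13 of 18 had higher means, with Ntrk3 at 0.47 (SE 0.43), Cited1 at 0.46 (SE 0.48), the thioesterase Acot11 at -0.49 (SE 0.16, limma unadjusted p = 0.00563, adjusted p = 0.987) and Tbx1 at -0.44 (SE 0.42). Among heat cycle genes 2 of 9 had higher means, with the creatine transporter Slc6a8 at -0.84 (SE 0.39, limma adjusted p = 0.987), Ckmt1 at -0.38 (SE 0.67), Gatm at 0.26 (SE 0.48) and Alpl at 0.18 (SE 0.49).

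For clodronate averaged over activity, 8682 of all 15138 genes tested had lower means. The adrenergic list had 5 of 8 lower means, with Adrb3 at -0.49 (SE 0.16, limma unadjusted p = 0.00439, adjusted p = 0.201), Adrb1 at -0.38 (SE 0.29) and Rgs2 at 0.23 (SE 0.26). Of the transcription factors 11 of 16 had lower means, with Pparg at -0.70 (SE 0.23, limma adjusted p = 0.249), Ebf2, a factor that opens brown fat enhancers, at -0.38 (SE 0.17), Irf4 at 0.19 (SE 0.31) and Klf11 at 0.17 (SE 0.26). Of the other brown and beige genes 13 of 18 had lower means, with the potassium channel Kcnk3 at -0.65 (SE 0.22, limma adjusted p = 0.236), Ntrk3 at -0.58 (SE 0.32), Acot2 at 0.15 (SE 0.11) and Tmem26 at 0.14 (SE 0.26). Of the heat cycle genes 6 of 9 had lower means, with Gamt, which makes creatine, at -0.57 (SE 0.23), Gatm at -0.42 (SE 0.35), Slc6a8 at 0.31 (SE 0.29) and Ckmt2, the mitochondrial creatine kinase of muscle and brown fat, at 1.22 (SE 0.53, limma adjusted p = 0.414). The medians of the 4 lists lay between -0.23 and -0.10, beside -0.04 for all genes, -0.39 for white adipocyte markers and 1.51 for muscle markers. Comparisons for PBS and clodronate mice share their control groups with the averages, so their directions are not separate evidence.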

How the data were processed

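RNA from mammary tissue was made into 3′ end libraries and sequenced. Per the labels, the authors mapped reads to GRCm38 with STAR 2.5.3a and scaled them to CPM; the counting annotation and strand setting are not given in the sources used here. The deposited signal is in CPM for each gene, where anything below 1 was raised to 1, and its total includes unmapped and multimapping reads. Above the floor 100% of values were whole reads within 0.1 read, which gave the depth; reads at the floor are lost, so no count test was used. The 4 rows that name no gene were left out; reads assigned to genes were 57.2% to 64.5% of a library. Precision at low values is limited by the floor, and intervals cover the spread between mice.

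Groups were taken from the labels, with 1 mouse a sample. The 15138 genes that 5 or more mice showed above the floor were fitted on log2(CPM + 1) in limma 3.58.1 (R 4.3.3), with a variance trend, 4 group means and Benjamini-Hochberg adjustment over all genes; a fold on this scale understates the change of low genes. Ucp1 was compared by exact permutation and marker relations by 100000 permutations within groups (Python 3.11.15, scipy 1.17.1). No relation with the lymphocyte score was computed, since mice fell into 2 clusters. The limma and permutation steps were tested on simulated data. The members and lists were chosen with earlier results of these data known. All members are named; of the other lists, genes past an adjusted p of 0.05 or otherwise the 2 largest rises and 2 largest falls in the PBS running and averaged clodronate comparisons, and for 6 members the nearest genes; a few genes that this rule names are not reported here. Alternatives were other pseudocounts, filters and scalings, no trend, a replicate block, only the groups compared and leaving out mice. Promoters and positions are RefSeq (GRCm38.p6) and GENCODE M21.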

Additional observations from a re-analysis of the deposited data

Results flagged for a closer look

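In 6 of 38 tests of a member within a group, 1 mouse stood apart from the rest by Dixon's ratio. Chance would give 1.9 (about 1 in 20) for normally spread values, which values tied at the floor are not. The 6 can therefore not be set against 1.9. Fabp3 and Otop1 in wheel + clodronate mice, flagged below, each had 3 of 5 mice at the floor. All values are log2(CPM + 1). Ucp1 stood apart in wheel + PBS mouse 3 (2.56) and control + clodronate mouse 1 (3.05), while the remaining group mates were at the floor, so any value above it would have stood apart. In wheel + clodronate mouse 4, Cidea was at 5.53 against 4.57 in the next mouse, and Otop1 at 2.92 against 1.49. Ppargc1a was low in wheel + PBS mouse 4, at 1.68 against 2.99 in the next mouse. Fabp3 was at 4.90 in wheel + clodronate mouse 2 against 1.78 in the next mouse; the muscle score of that mouse was 9.56, next to the highest of 22.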

How the results depend on the processing

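No member passed the test in any comparison under any alternative, and the lowest adjusted p over the alternatives was 0.0959, for Prdm16 and clodronate averaged over activity among genes averaging 5 CPM or more (its adjusted p ran up to 0.554). That range leaves out fits without a single mouse, where its lowest adjusted p was 0.0827 averaged over activity and 0.0753 in wheel-running mice. In the 3 alternatives chosen after seeing the data, changes were recomputed for Prdm16 and the members tied to that marker score only. Prdm16 kept its direction for clodronate throughout; without 1 mouse it was -0.68 to -0.56 averaged and -1.04 to -0.81 in wheel-running mice. Upper-quartile scaling moved the share of genes higher with running and PBS from 36.2% to 48.7%, with clodronate in controls from 34.6% to 47.3%.
Among all genes, the count passing for clodronate averaged over activity was 54 among genes averaging 5 CPM or more, 12 with upper-quartile scaling, 15 with scaling to listed genes, 20 without the variance trend, and 0 without the lymphocyte-high, the muscle-high or the 11 epidermis-high mice (alternatives chosen after seeing the data). For clodronate in wheel-running mice it was 3 with a pseudocount of 5 or upper-quartile scaling, 4 without the filter, 2 without the trend or with scaling to listed genes, 0 with a higher filter, only the groups compared or without lymphocyte-high mice, 20 without muscle-high mice and 68 without epidermis-high mice. For running with clodronate it was 3 without the filter, 0 with a higher filter, only the groups compared, or without lymphocyte- or muscle-high mice, and 274 without epidermis-high mice. For running averaged over liposomes it was 2 without the filter and 78 without epidermis-high mice, and for the interaction 2 without the filter. Leaving out the epidermis-high mice left 2 control + clodronate and 2 wheel + clodronate mice. Lymphocyte scores were 1.04 and 1.04 in these control mice and 5.66 and 4.99 in these wheel-running mice. The part of lymphocyte content in the counts without epidermis-high mice was not tested. Leaving out the lymphocyte-high mice also left 2 wheel + clodronate mice. Without 1 mouse the counts ran from 12 to 146 (clodronate averaged), 0 to 38 (in controls), 0 to 51 (in wheel-running mice) and 0 to 240 (running with clodronate). The highest counts came without control + clodronate mouse 1 (146 and 38) and without wheel + clodronate mouse 2 (51 and 240). The lymphocyte score of wheel + clodronate mouse 2 was 1.31, against 4.99 to 5.66 in mice 3, 4 and 5 of its group.
The replicate numbers are shared by different mice and do not pair them: deviations of same-numbered mice correlated at -0.252 to 0.114 with PBS and -0.120 to 0.517 with clodronate. With a replicate block the counts were 11 (clodronate averaged), 0 (in wheel-running mice) and 0 (running with clodronate), and 3 differences near 0 reversed: Dio2 (0.018) and Elovl3 (-0.081) for clodronate in wheel-running mice, and Elovl3 (-0.13) averaged.
Other reversals were of differences within their error. Ppargc1a for running with clodronate was 0.017 with a pseudocount of 0.1 and 0.060 with scaling to listed genes, which gave 0.0054 for Cox8b and 0.0034 for Prdm16 for running averaged. With a pseudocount of 5, Otop1 was 0.082 for the interaction and Elovl3 0.014 for clodronate in controls, and 0.058 with upper-quartile scaling. Without the muscle-high mice, Cox8b was -0.13 and 0.027 for running with PBS and clodronate, 0.15 for the interaction and -0.19, -0.036 and -0.11 for clodronate in controls, in wheel-running mice and averaged, Fabp3 was 0.14 for the interaction and Cox7a1 -0.41 for clodronate in wheel-running mice. Without lymphocyte-high mice Prdm16 was 0.12 for running averaged. Without epidermis-high mice Elovl3 passed the floor in too few mice to be tested. Of the relations with marker scores, 0 passed without the 2 farthest mice, where Cox8b against muscle was -0.22; fewer mice also lower the power. Leaving out 1 mouse at a time reversed these differences. For running with PBS, Cidea -0.091 to 0.30, Cox8b -0.13 to 0.18, Elovl3 -0.77 to 0.051 and Otop1 -0.34 to 0.21. For running with clodronate, Cox7a1 -0.99 to 0.16, Cox8b -0.40 to 0.22, Elovl3 -0.63 to 0.27 and Ppargc1a -0.32 to 0.30. For the interaction, Cox8b -0.41 to 0.20, Elovl3 -0.38 to 0.70, Fabp3 -0.96 to 0.31, Otop1 -0.42 to 0.17 and Ppargc1a -0.62 to 0.0077. For running averaged over liposomes, Cox8b -0.19 to 0.12, Otop1 -0.33 to 0.018, Ppargc1a -0.012 to 0.30 and Prdm16 -0.11 to 0.013. For clodronate in controls, Cidea -0.38 to 0.11, Cox8b -0.069 to 0.55, Elovl3 -0.62 to 0.46 and Ppargc1a -0.41 to 0.10. For clodronate in wheel-running mice, Cox7a1 -0.41 to 0.45, Cox8b -0.036 to 0.24, Dio2 -0.22 to 0.15 and Elovl3 -0.20 to 0.42. For clodronate averaged over activity, Elovl3 -0.27 to 0.27. No cause was tested. Depth and the floor leave Ucp1, Dio2 and Fabp3 near the limit of detection.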
